A study of Bos taurus with 20 samples.

Results

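Genes of the unfolded protein response and of the heat shock response were followed in the udders of dairy cows with an experimental Escherichia coli mastitis. The 10 genes sought were HSPA5, HSP90B1, PDIA4, CALR, DNAJB9, XBP1, ATF4, DDIT3, HSPA8 and HSPH1. They were chosen by name, and every probe set that the array's annotation gives to one of these symbols alone was taken. The annotation holds 16 such probe sets, of 24128 on the array, for 9 of the 10 genes. XBP1 has no probe set in it and was not analysed here. Of the 16 probe sets, 12 were bright enough to be tested at each time point. The other 4, another one of HSPA5 and 3 of HSPH1, stayed dim on all 20 arrays, and each of these genes has another probe set that was tested.

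Secretory cells fold their proteins in the endoplasmic reticulum (ER), and the unfolded protein response adjusts the folding capacity to the load. The membrane sensors IRE1 (gene ERN1), ATF6 and PERK (gene EIF2AK3) act through the transcription factors XBP1, cleaved ATF6 and ATF4. ER chaperone genes such as HSPA5 are well-known targets of the XBP1 and ATF6 branches, and DDIT3 is a target of ATF4. Heat shock factors serve the cytosol in a like way through the chaperones of the HSP70, HSP90 and HSP110 families. The lactating mammary epithelium secretes large amounts of casein and whey protein and so carries a well-developed ER. The processing of XBP1 and ATF6 and the translation of ATF4 are not read by an expression array.

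Each of 5 lactating Holstein Friesian cows gave 4 glands, and each gland gave 1 array of the Affymetrix GeneChip Bovine Genome Array. The right front gland was left unchallenged (NC), and the other 3 glands received 100 cfu of E. coli through the teat. Of these, the left front gland stayed untreated (CNT), and 1 rear gland received the cephalosporin cefapirin at 300 mg per infusion (CF). The other rear gland received the same dose together with the glucocorticoid prednisolone at 20 mg (CFPD). Infusions at 4 and 12 h preceded the sampling of cows 4 and 5 at 24 h, and further infusions at 24 and 36 h preceded that of cows 1, 2 and 3 at 48 h. The groups therefore held 2 glands at 24 h and 3 glands at 48 h. The NC gland shared its cow with the 3 challenged glands, and gland position coincides with group for NC and CNT. No cow was sampled at both time points, so that time and cow cannot be told apart.

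The 4 milk protein genes CSN2, CSN3, LALBA and CSN1S1 lay between 14.12 and 15.58 (log2) on all 20 arrays, which fits the labelled mammary tissue. Summed neutrophil markers (4 tested genes of 12 sought) lay between 8.83 and 10.21 (log2 of the summed signal) in NC glands and between 12.90 and 15.32 in CNT glands. In CF and CFPD glands the same sum lay between 9.28 and 10.50. A gene bright in the CNT glands alone passes the brightness filter, so this sum over tested genes is given as a description. The 12 secretory epithelium markers summed to between 18.57 and 18.67 in NC glands and between 18.20 and 18.48 in CNT glands. The monocyte and macrophage markers (7 tested genes of 10 sought) summed to between 11.69 and 12.28 in NC and between 12.91 and 14.03 in CNT glands at 24 h, and to between 12.90 and 13.17 and between 13.47 and 13.68 at 48 h. The 3′ minus 5′ signal of the actin control probe sets, a sign of RNA quality, lay between 1.27 and 1.54 (log2) in NC and between 1.56 and 2.32 in CNT glands, with no overlap over the 5 cows. In CF and CFPD glands it lay between 0.82 and 1.92. In such tissue, fewer cells of a type and less RNA per cell cannot be told apart, and the part of cell composition and of RNA quality in the values below was not tested. Which rear gland was CF and which CFPD is in doubt for cows 1 and 4, because the fold changes of the study's own tables follow these arrays more closely with both labels exchanged. For the comparisons that use CF or CFPD glands, values with these labels exchanged are therefore given as well.

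At 24 h the 8 tested probe sets of ER chaperones, from 5 genes, all had higher values in the untreated challenged gland than in the unchallenged gland of the same cow. With 2 cows this is a weak rule, and its own share over all probe sets is not given, so that it is only a description. The stricter rule of CNT glands wholly above NC glands was met by 26.3% of all probe sets. Calreticulin (CALR), a calcium-binding lectin chaperone of the ER, rose 2.60-fold (log2 1.38 ± 0.26 SE, limma, adjusted p = 0.0463). It was the only one of the 12 probe sets that was called higher, which means an adjusted p under 0.05 and a log2 change of at least 1. Of all 13004 probe sets tested at 24 h, 1.62% were called higher, so that 1 of 12 is not read as a result about these genes. With the cow as a block, which compares glands of the same cow, 4 of the 12 were called higher: CALR, HSP90B1, PDIA4 and HSPA5. The share of all probe sets called higher with this block was 3.98%. The neutrophil and monocyte marker sums and the actin 3′ minus 5′ signal were higher in the CNT glands of the same cows, and their part in these calls was not tested.

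**Figure D1:**
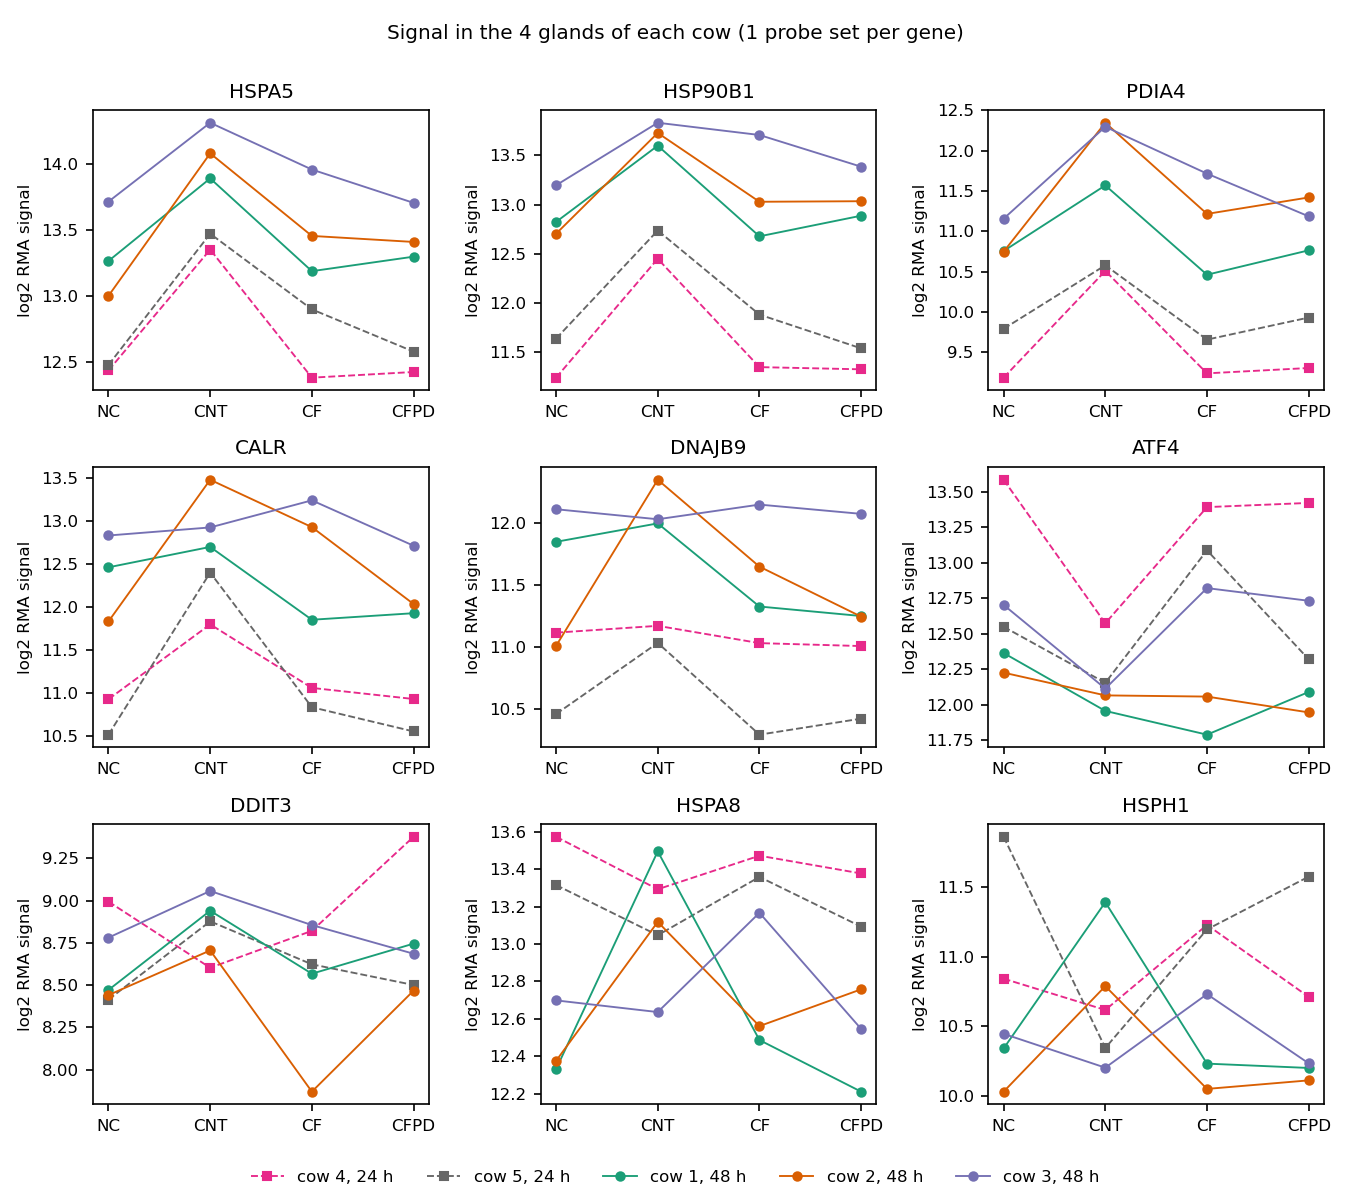
Signal of 9 genes (1 probe set each, log2 RMA, vertical axes fitted to each gene) in the NC, CNT, CF and CFPD gland of each cow. Each line joins the 4 glands of 1 cow, dashed with squares for the 2 cows of 24 h and solid with circles for the 3 cows of 48 h. The CNT gland is the highest of the 4 in 5 of 5 cows for HSPA5, HSP90B1 and PDIA4.

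HSPA5 encodes BiP, the HSP70-type chaperone of the ER that also holds the stress sensors inactive. Its brighter tested probe set read 12.43 and 12.47 in the NC glands of cows 4 and 5, and 13.35 and 13.47 in their CNT glands. At 48 h it read 13.27 and 13.72 in the NC glands of cows 1 and 3, and 13.89, 14.08 and 14.32 in the CNT glands of cows 1, 2 and 3. The NC gland of cow 2 was the lowest at 48 h and lay 1.08 (log2) below its CNT gland. Every CNT gland lay above every NC gland of its time point, and the difference within a cow was between 0.60 and 1.08 (log2). This gave log2 fold changes of 0.96 ± 0.20 (SE) at 24 h and 0.77 ± 0.24 at 48 h. The limma adjusted p was 0.0587 and 0.0865, and 0.0116 and 0.00888 with the cow as a block.

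The dimmer tested HSPA5 probe set gave larger and more variable differences. They came to 1.41 ± 0.36 (log2, SE) at 24 h and 1.17 ± 0.36 at 48 h. Its within-cow difference ranged from 0.37 in cow 3 to 2.33 in cow 2. The limma adjusted p of 0.0875 and 0.0879 became 0.0248 and 0.0468 with the block, past the threshold at both times.

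HSP90B1 encodes GRP94, the HSP90 of the ER, which folds Toll-like receptors and integrins. Its signal was 11.24 and 11.64 in the NC glands and 12.45 and 12.74 in the CNT glands at 24 h. At 48 h, cows 1, 2 and 3 gave 12.82, 12.70 and 13.20 in NC glands and 13.60, 13.73 and 13.83 in CNT glands. The groups did not overlap at either time, and cow 3 had the smallest within-cow difference (0.64) and cow 4 the largest (1.21). The log2 fold change was 1.15 ± 0.24 (SE) at 24 h and 0.81 ± 0.25 at 48 h. The limma adjusted p was 0.0591 and 0.0846, and 0.00521 and 0.0117 with the cow as a block.

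PDIA4 encodes ERp72, a protein disulfide isomerase that forms and rearranges disulfide bonds. Its brightest probe set read 9.18 and 9.79 in NC and 10.51 and 10.58 in CNT glands at 24 h. At 48 h it read 10.75, 10.75 and 11.16 in NC and 11.57, 12.35 and 12.30 in CNT glands of cows 1, 2 and 3. The groups were separate at both times, with log2 fold changes of 1.06 ± 0.29 (SE) and 1.18 ± 0.32. Adjusted p-values by limma were 0.104 and 0.058, and 0.0113 and 0.0061 with the block. The other PDIA4 probe sets disagreed in size: the middle one gave 0.67 and 0.97, and the dimmest gave 0.47 and 0.26, none of them past an adjusted p of 0.05 with or without the block. The middle one ranged from 0.31 to 1.03 at 24 h and from 0.32 to 1.34 at 48 h when an array or a cow was left out, with 0.31 without cow 5 and 0.32 without cow 2, whose within-cow difference was 2.28.

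CALR itself read 10.93 and 10.52 in the NC glands and 11.80 and 12.40 in the CNT glands at 24 h. In cows 1, 2 and 3 (48 h) it read 12.46, 11.83 and 12.83 in NC glands and 12.70, 13.48 and 12.92 in CNT glands. The groups overlapped at 48 h, where the within-cow difference was 0.24, 1.65 and 0.09, so that cow 2 carried most of it. The log2 fold change at 48 h was 0.66 ± 0.38 (SE, limma adjusted p = 0.309, and 0.166 with the block). Without cow 2 it was 0.17. Leaving out an array or a cow at 24 h left 1 gland in a group, so that only the size of the change is read there. The log2 fold change of CALR ran from 0.87 without cow 5 to 1.88 without cow 4. Its call at 24 h therefore rests on 2 glands per group.

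DNAJB9 encodes ERdj4, a J-domain co-chaperone of BiP. Its log2 fold change was 0.31 ± 0.34 (SE) at 24 h and 0.47 ± 0.32 at 48 h, with limma adjusted p-values of 0.646 and 0.39. The within-cow differences ran from -0.08 in cow 3 to 1.34 in cow 2, and the groups overlapped at both times. In cow 2 DNAJB9 read 11.01 in the NC and 12.35 in the CNT gland, and leaving cow 2 out brought the 48 h value to 0.034.

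**Figure D2:**
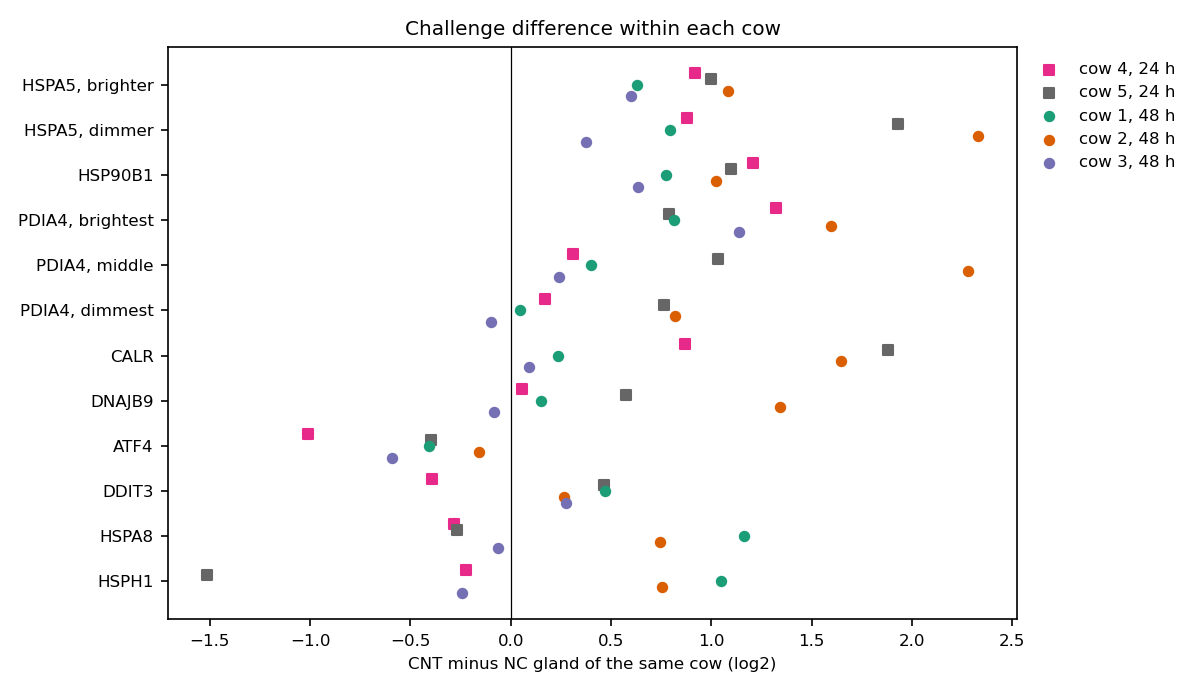
Difference between the CNT and the NC gland of the same cow (log2, horizontal axis) for the 12 tested probe sets, 1 point per cow, squares for 24 h and circles for 48 h. The points of the brighter HSPA5, HSP90B1 and the brightest PDIA4 probe set all lie between 0.60 and 1.60, all 5 points of ATF4 lie below 0, and HSPA8 and HSPH1 have points on both sides.

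The CNT gland held the highest signal of the cow's 4 glands in 5 of 5 cows for 4 of the 12 probe sets, namely the brighter of HSPA5, that of HSP90B1, and the brightest and the middle one of PDIA4. Among the 12518 probe sets tested at both times, 9.89% did so. At 24 h, 7 of the 12, from only 4 genes, had CNT glands wholly above NC glands, against 26.3% of all probe sets. Probe sets of the same gene are not independent. At 48 h this held for 4 of the 12, against 21.6%. With the cow as a block, 2 of the 12 (PDIA4 and HSPA5) were called higher at 48 h, against 3.87% of all, and none was without the block, against 2.15%. At an unadjusted p under 0.05 without the block there were 6, against 24.3% of all probe sets.

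Neither tested transcription factor passed an adjusted p of 0.05 in CNT against NC glands. ATF4, the effector of the PERK branch, read 13.59 and 12.55 in NC glands and 12.57 and 12.15 in CNT glands at 24 h. At 48 h it read 12.36, 12.22 and 12.70 in NC and 11.95, 12.06 and 12.11 in CNT glands of cows 1, 2 and 3. The CNT gland was below the NC gland in each of the 5 cows, by between 0.16 and 1.01 (log2). It was the lowest of the cow's 4 glands in only 3 of the 5. The share of all probe sets with a lower CNT gland in every cow is not given, so that 5 of 5 is only a description. The groups did not overlap at 48 h, where 9.07% of all probe sets had CNT glands wholly below. For ATF4 the log2 fold change was -0.70 ± 0.45 (SE) at 24 h and -0.39 ± 0.27 at 48 h. The limma adjusted p was 0.42 and 0.407, and 0.08 and 0.156 with the block.

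DDIT3, which encodes CHOP, a factor linked to cell death under lasting ER stress, was near the middle of the signal range. It read 8.99 and 8.41 in NC and 8.60 and 8.88 in CNT glands at 24 h. At 48 h it read 8.47, 8.44 and 8.78 in NC and 8.94, 8.71 and 9.06 in CNT glands of cows 1, 2 and 3. The log2 fold change was 0.04 (95% interval -0.73 to 0.80) at 24 h and 0.34 (-0.17 to 0.84) at 48 h, with limma adjusted p-values of 0.967 and 0.392. At 24 h the cows went in opposite directions, and quantile normalization within the time point turned the value to -0.034.

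The cytosolic heat shock genes HSPA8 and HSPH1 had lower values in CNT than in NC glands in both cows of 24 h and higher values in 2 of 3 cows of 48 h, with no adjusted p under 0.05. HSPA8 encodes the constitutive cytosolic HSP70. It read 13.57 and 13.32 in NC and 13.29 and 13.05 in CNT glands at 24 h. At 48 h it read 12.33, 12.38 and 12.70 in NC and 13.50, 13.12 and 12.64 in CNT glands of cows 1, 2 and 3. The CNT gland of cow 3 was thus the exception at 48 h. For HSPA8 the log2 fold change was -0.27 ± 0.18 (SE) at 24 h and 0.61 ± 0.25 at 48 h, with limma adjusted p-values of 0.445 and 0.165.

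HSPH1 encodes HSP105, an HSP110-type exchange factor for HSP70. Its tested probe set read 10.84 and 11.86 in NC and 10.62 and 10.35 in CNT glands at 24 h. At 48 h it read 10.34, 10.03 and 10.45 in NC and 11.39, 10.79 and 10.20 in CNT glands. As for HSPA8, cows 1 and 2 were higher and cow 3 lower in the CNT gland. The log2 fold change was -0.87 ± 0.39 (SE) at 24 h, where cow 5 gave -1.51 and cow 4 -0.22, and 0.52 ± 0.27 at 48 h. The limma adjusted p was 0.26 and 0.264.

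The challenge differences of 24 h and 48 h were then compared in 1 fit. HSPH1 had the largest difference between them, 1.39 higher (log2) at 48 h (95% interval 0.36 to 2.42, limma adjusted p = 0.499), and HSPA8 was 0.89 higher (0.12 to 1.65, limma adjusted p = 0.574). For the brighter HSPA5 probe set the difference was -0.19 (-0.92 to 0.55), for HSP90B1 -0.34 (-1.15 to 0.46) and for CALR -0.72 (-1.89 to 0.45). None of the 13486 probe sets tested by limma passed an adjusted p of 0.05 (0% called), while 1052 had an unadjusted p under 0.05.

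The unchallenged glands themselves differed between the time points, that is, between cows 4 and 5 and cows 1, 2 and 3. This comparison was added after the values were seen. HSP90B1 was 1.47 ± 0.27 (log2, SE) higher in the NC glands of 48 h (limma adjusted p = 0.0105), CALR 1.65 ± 0.39 (0.0277), the brightest PDIA4 probe set 1.40 ± 0.34 (0.0326) and the dimmer HSPA5 probe set 1.62 ± 0.40 (0.0348). HSPA8 was 0.98 lower (log2 -0.98 ± 0.25, limma adjusted p = 0.0415). These 5 of 12 probe sets passed an adjusted p of 0.05, against 4.39% of all probe sets. With the 5 NC arrays fitted alone 2 passed (HSP90B1 and PDIA4), and without cow 4 or without cow 5 none passed. For HSP90B1, the NC glands of 48 h (12.70 to 13.20) reached or exceeded the CNT glands of 24 h (12.45 and 12.74), except that cow 2 lay just below cow 5. Whether time after challenge or the cows set this difference cannot be told apart, and whether the arrays of both times were normalized together is not given in the sources used here.

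For the ER chaperones, the mean of the treated glands lay below that of the untreated challenged glands for each of the 8 probe sets at both times. Within cows, 73 of 80 differences of a treated from the CNT gland were below 0. The other 7 came from cow 3, with the dimmest PDIA4 probe set (0.41), CALR (0.31), DNAJB9 (0.12) and the dimmer HSPA5 (0.0082) in CF and DNAJB9 (0.044) in CFPD, and from cow 4, with the dimmest PDIA4 in CF (0.028) and CFPD (0.015). The 80 values come from 8 probe sets of 5 genes, and the CF and CFPD glands of a cow share its CNT gland. They are therefore not independent, and no such count over all probe sets is given, so that 73 of 80 is only a description. In CF against CNT glands at 24 h, CALR was 1.15 ± 0.26 (log2, SE) lower (-1.15, limma adjusted p = 0.0738), HSP90B1 -0.98 ± 0.24 (0.0861), the brightest PDIA4 probe set -1.10 ± 0.29 (0.0974) and the dimmer HSPA5 probe set -1.19 ± 0.36 (0.127). None of the 12 was called lower, against 1.59% of all probe sets, and 6 had an unadjusted limma p under 0.05, against 21.4%. With the labels of cow 4 exchanged, CALR was at -1.22, HSP90B1 at -0.99, the brightest PDIA4 at -1.06 and the dimmer HSPA5 also at -1.06, with limma adjusted p-values from 0.0775 to 0.173. With the cow as a block 3 were called lower (CALR, PDIA4 and HSPA5), against 4.16%, and 2 with the labels exchanged as well, against 3.58%. ATF4 was higher in CF than in CNT glands at 24 h (0.88 ± 0.45, SE, limma adjusted p = 0.312). With the block its adjusted p was 0.0442 by limma (0.0434 with the labels exchanged), at a change below 1 (log2) that 5.84% of all probe sets passed in this direction.

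For CFPD against CNT glands at 24 h, CALR was at -1.36 ± 0.26 (log2, SE, limma adjusted p = 0.0611) and HSP90B1 at -1.16 ± 0.24 (0.0701). The brighter HSPA5 probe set was at -0.91 ± 0.20 (0.0799). None was called lower without the block, against 1.04% of all, and 6 had an unadjusted limma p under 0.05, against 18.5%. With the labels exchanged these 3 were at -1.29, -1.15 and -0.94, with limma adjusted p-values of 0.0626, 0.063 and 0.0606. With the block 2 were called lower (CALR and HSP90B1), against 3.49%, and 3 with the labels exchanged as well, against 3.88%. At 24 h, all CFPD glands lay below all CNT glands for 7 of the 12 probe sets, from 5 genes, against 25.2% of all probe sets. With the labels exchanged this held for 7, against 27.1%.

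At 48 h, HSP90B1 in the CF gland was 0.92 and 0.70 below the CNT gland in cows 1 and 2 but only 0.12 below it in cow 3, and CALR was 0.31 above it in cow 3. The log2 fold changes of CF against CNT glands for the ER chaperones ran from -0.98 to -0.11, with limma adjusted p-values from 0.139 upwards, and from -0.86 to -0.11 with the labels exchanged. For CFPD they ran from -1.28 (the dimmer HSPA5 probe set, limma adjusted p = 0.113) to -0.50, and from -1.39 to -0.50 with the labels exchanged. None of the 12 was called lower at 48 h, against 1.5% of all probe sets in CF and 1.05% in CFPD glands, while 4 and 7 had an unadjusted limma p under 0.05, against 20.9% and 18.7%. With the cow as a block, the brighter HSPA5, the HSP90B1 and the brightest PDIA4 probe set passed an adjusted p of 0.05 against CNT glands in both treatments at changes below 1 (log2), with lower values in 7.7% and 5.77% of all probe sets at this rule. With the labels exchanged as well, 2 passed in CF (HSP90B1 had an adjusted p of 0.0512 by limma) and 4 in CFPD, with the dimmer HSPA5 added, against 9.63% and 5.07% of all.

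**Figure D3:**
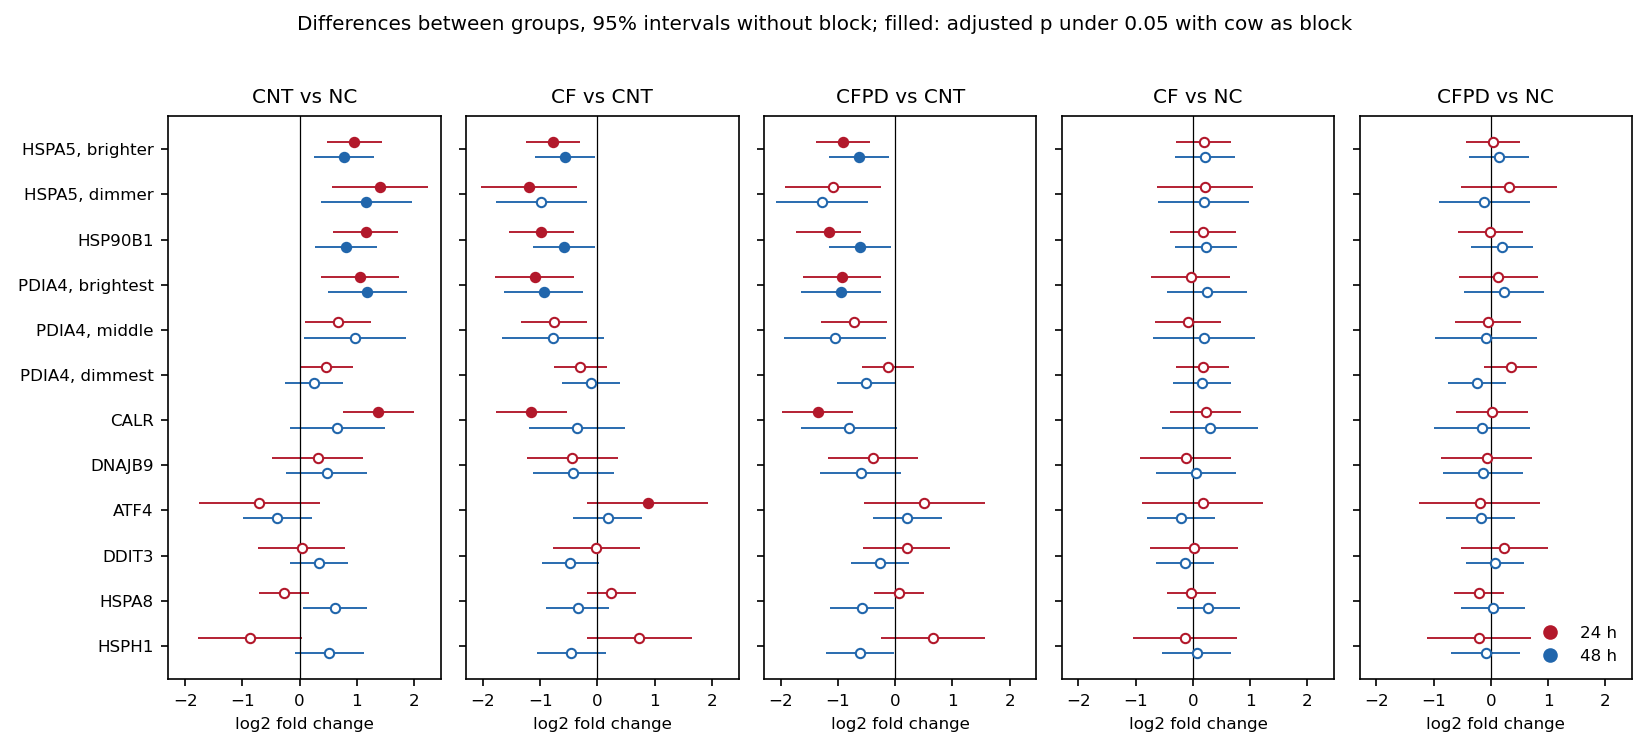
Log2 fold changes with 95% intervals (limma, no block) for the 12 tested probe sets in 5 comparisons, red for 24 h and blue for 48 h. Filled points passed an adjusted p of 0.05 with the cow as a block. Points of the ER chaperones lie right of 0 in CNT against NC, left of 0 in CF and CFPD against CNT, and near 0 in both comparisons of treated with NC glands.

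Against NC glands the treated glands showed small values for all 12 probe sets. In CF glands they ran from -0.14 to 0.23 (log2) at 24 h and from -0.21 to 0.30 at 48 h, and in CFPD glands from -0.21 to 0.35 and from -0.24 to 0.24. With the labels of cows 1 and 4 exchanged, these ranges were -0.40 to 0.34 and -0.11 to 0.35 for CF, and -0.21 to 0.35 and -0.28 to 0.14 for CFPD. By limma no member passed an adjusted p of 0.05 in any of these comparisons, nor did any other probe set (0% called), and no member had an unadjusted p under 0.05. The intervals bound these values only loosely: their half-width was 0.43 to 1.06 at 24 h and 0.51 to 0.89 at 48 h. For HSP90B1 the 95% interval of CF against NC was -0.40 to 0.75 at 24 h and -0.31 to 0.77 at 48 h.

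Prednisolone added to cefapirin gave no detectable difference in these genes. CFPD against CF values ran from -0.37 to 0.22 (log2) at 24 h and from -0.45 to 0.20 at 48 h, and from -0.40 to 0.45 and -0.53 to 0.08 with the labels exchanged. The lowest limma adjusted p was 1 at both times, no probe set of the array was called (0%), and no member had an unadjusted p under 0.05. All 8 ER chaperone values were below 0 at 48 h, from -0.45 to -0.01, with intervals up to 0.89 to either side. The intervals lay within a log2 change of 1 for 11 of the 12 probe sets at 24 h and for 9 at 48 h.

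Lists of related genes were read from the same fits, with 1 probe set per gene. The lists include the members above, so their counts and medians are not separate from the values already given. HSPA5, HSP90B1, PDIA4, CALR and DNAJB9 are in the ER chaperone list. ATF4 and DDIT3 are in the ATF4 list, and HSPA8 and HSPH1 in the heat shock list. Of 19 tested ER chaperones and folding enzymes, 17 had a higher mean in CNT than in NC glands at 24 h and 17 at 48 h. Their median log2 fold change was 0.60 and 0.71, beside -0.01 and 0.13 over all probe sets tested. The share of all probe sets with a higher mean is not given, so that the counts of 17 are only a description. Called higher at 24 h were 3 of the 19: MANF, a secreted ER protein that protects stressed cells, at 1.53 ± 0.25 (SE, limma adjusted p = 0.0344), CALR, and CRELD2, an ER-stress-induced protein, at 1.24 ± 0.22 (0.0373). MANF read 10.27 and 10.78 in NC and 12.01 and 12.10 in CNT glands. None was called at 48 h without the block, where DNAJC10, an ER disulfide reductase, and PDIA3, the partner isomerase of calreticulin, had the lowest limma adjusted p (0.0382 and 0.0401) at 0.83 and 0.78. With the cow as a block 5 were called at 24 h and 4 at 48 h. The share of all probe sets called higher was 1.62% at 24 h and 2.15% at 48 h, and 3.98% and 3.87% with the block. MANF and CRELD2 fell in CF against CNT glands at 24 h (-1.48 ± 0.25 and -1.21 ± 0.22, limma adjusted p = 0.0391 and 0.0408). In CFPD against CNT glands CRELD2 fell (-1.26 ± 0.22, limma adjusted p = 0.0458), and MANF was lower as well, at -1.34. With the labels exchanged, MANF and CRELD2 had limma adjusted p-values of 0.0496 and 0.0385 in CF glands (-1.39 and -1.29) and of 0.0463 and 0.0445 in CFPD glands (-1.42 and -1.19).

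Among the 4 tested sensors and their proteases none was called, and the median was 0.07 at 24 h and -0.02 at 48 h. ATF6B, a relative of ATF6, had the lowest adjusted p in this list at both times, with 0.43 and 0.32 (log2). ER-associated degradation, which removes misfolded proteins, had 0 of 13 genes called, with medians of -0.03 and 0.17. In it, HERPUD1, a stress-induced scaffold of the degradation complex, reached 0.83 ± 0.18 (SE, limma adjusted p = 0.0329) at 48 h, and EDEM2, a mannosidase-like factor, 0.60 at 24 h. None of 17 genes of protein translocation and secretion was called (medians 0.16 and 0.08). There SPCS3, a signal peptidase subunit, had 1.11 ± 0.28 at 24 h (limma adjusted p = 0.0875, and 0.00532 with the block).

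The list of the ATF4 branch had no called gene among 17 tested at 24 h and 16 at 48 h, and its median was -0.29 and 0.28. VLDLR, a lipoprotein receptor, was at -1.07 ± 0.26 (SE) at 24 h (limma adjusted p = 0.076, and 0.0141 with the block). CEBPB, a transcription factor of acute inflammation, was at 1.10 ± 0.31 at 48 h (0.0695, and 0.00889 with the block), and SESN2, a stress-induced regulator of nutrient signalling, at 0.71 ± 0.18 (0.0505). Cytosolic and mitochondrial heat shock genes had medians of 0.00 at 24 h and 0.33 at 48 h. Of 24 and 25 tested, 0 and 1 were called. BAG3, a co-chaperone that directs HSP70 clients to autophagy, rose at 48 h by 1.30 ± 0.26 (SE, limma adjusted p = 0.0212). It read 10.29, 9.85 and 10.47 in NC and 11.50, 11.58 and 11.43 in CNT glands. HSPA4 and HSPB8 had the lowest adjusted p at 24 h, with 0.53 and -0.62.

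**Figure D4:**
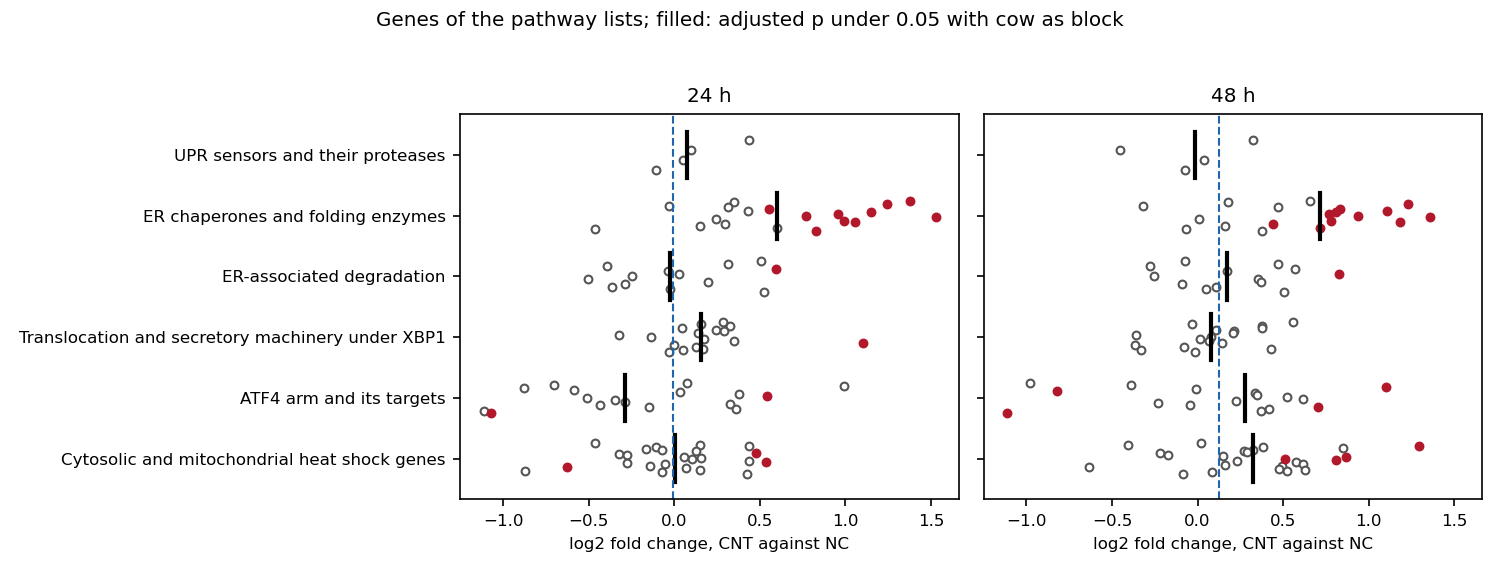
Log2 fold changes of CNT against NC glands for the genes of 6 lists at 24 h and 48 h, 1 point per gene. Filled points passed an adjusted p of 0.05 with the cow as a block, black bars are the list medians, and the dashed line is the median of all probe sets tested. The ER chaperones and folding enzymes have medians of 0.60 and 0.71, and the medians of the other lists lie between -0.29 and 0.33.

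With the mean of each cow subtracted, the 8 ER chaperone probe sets followed each other over the 20 arrays, with a median Pearson r of 0.82 over 28 pairs (0.53 to 0.98). Over the 15 arrays without the CNT glands the median was 0.59 (0.15 to 0.84). The arrays share their cows, so r is given as a description. HSPA8 and HSPH1 had r = 0.75 with each other. Between an ER chaperone and another member, r ran from -0.64 to 0.49. Of 8672 probe sets with a symbol, the 5 genes most like HSPA5 were HSP90B1 (0.98), LAP, a defensin of the mammary epithelium (0.97), PDIA3 (0.97), GSR, glutathione reductase (0.96), and CTSZ, a lysosomal protease (0.96). Without the subtraction, r fell to 0.70 for LAP, 0.68 for GSR and 0.69 for CTSZ but was 0.97 for HSP90B1 and 0.96 for PDIA3. The 5 most like HSPA8 were PHF5A (0.93), PIGW (0.92), DDX52 (0.92), ODC1 (0.91) and GCSH (0.89). Both searches used all 20 arrays, with the CNT glands among them. No r without the CNT glands is given for the genes found, and the part of the challenge in their likeness was not tested.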

How the data were processed

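The deposited values are log2 signals, which the authors computed with RMA (background correction, quantile normalization, summarization per probe set) in the Bioconductor package affy from 20 arrays, without pooling. Versions are not given in the sources used here. Tissue had an RNA integrity number above 8. The labels name the cisternal region, the study the mid parenchyma. Groups, times and cows came from the labels.

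Control probe sets (112) were left out, as were those above the array's median on fewer than 2 (24 h) or 3 (48 h) arrays. Each time point had its own limma fit (version 3.58.1, R 4.3.3) over its 4 groups, without the cow, for which the study's methods name no term, with Benjamini-Hochberg adjustment over 13004 or 13000 probe sets. The residual degrees of freedom were 4 and 8. The fits were tested on simulated data. The cow as a block was an alternative. The glands share a cow, and the deviations of glands of a cow from their group means had a mean r of 0.52 at 24 h (0.33 to 0.71) and 0.45 at 48 h (0.06 to 0.84). Spike-in controls read 10.52 to 11.46 in cows 3 and 5 and 9.43 to 10.52 in cows 1, 2 and 4, and each cow holds all 4 groups. The number of arrays limits the precision.

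All 10 genes were named, and values are given for all 12 tested probe sets of the 9 genes that have any. The dim probe sets of HSPA5 and HSPH1 were not tested, and their values are not given. From each of 6 pathway lists, up to 4 called genes or else the 2 with the lowest adjusted p in CNT against NC were named, as were the 5 genes most like HSPA5 and HSPA8. Members and lists were chosen with earlier results of these data known. The calls in treated glands and the block calls were named after their values were seen. Lists were read as counts and medians. Marker lists of monocytes, lymphocytes and fibroblasts were also read: in CNT against NC glands, all 4 neutrophil genes rose at both times, 2 of 7 monocyte genes rose (48 h) or 0 of 7 (24 h), and no T cell, B cell or fibroblast and endothelial gene was called. Genes bright in the CNT glands alone pass the filter, so the rise of the 4 kept neutrophil genes was partly set by it and is not read as a result. Of 12 epithelial genes, 1 was called lower at 24 h.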

Additional observations from a re-analysis of the deposited data

Results flagged for a closer look

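HSPA8 was higher in the CFPD than in the CNT gland in both cows of 24 h (0.08 and 0.05, log2) and lower in all 3 cows of 48 h (-1.28, -0.36 and -0.09), so that the mean within-cow difference at 48 h minus that at 24 h was -0.64. The dimmest of the 3 PDIA4 probe sets was higher in the CFPD than in the NC gland in both cows of 24 h (0.19 and 0.50) and lower in all 3 cows of 48 h (-0.12, -0.32 and -0.29), a difference of -0.59. With the labels of cows 1 and 4 exchanged these differences were -0.60 in both cases, and each cow kept its direction. Both stand here because every cow of one time point went one way and every cow of the other the opposite way. With so few cows such a pattern can arise by chance, and its share over all probe sets is not given. Both are therefore only a description. For HSPA8 the values of 24 h (0.08 and 0.05) and that of cow 3 at 48 h (-0.09) were small. Neither difference between the time points was tested.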

How the results depend on the processing

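The 12 probe sets of the report give counts of calls that depend on the cow. With the replicate block (cow as a fixed term), the calls went from 1 to 4 for CNT against NC at 24 h, from 0 to 2 at 48 h, and at 24 h from 0 to 3 for CF and to 2 for CFPD against CNT. A random block gave 4, 2, 3 and 2, and 1 for CFPD against CNT at 48 h. Without the fold limit the block gave 5 and 4 for CNT against NC at 24 and 48 h, 6 (5 lower, and ATF4 higher) and 3 for CF, and 4 and 3 for CFPD against CNT. This setting, the label exchange with a block and the NC comparison were chosen after the data were seen. The call of CALR at 24 h was lost (0) with no filter, with quantile normalization and with the labels of cows 1 and 4 exchanged. Block and exchange together gave 4 and 2 for CNT against NC, 2 for CF at 24 h, and 3 and 2 for CFPD. All 20 arrays in 1 fit gave 1 at 48 h (PDIA4) and still 1 at 24 h, with HSP90B1 in place of CALR. Leaving out 1 array or cow gave 0 to 1 calls for CNT against NC at 48 h. At 24 h it left 1 gland in a group, and without a cow the spread came from the 48 h glands alone. Calls of those fits are therefore not counted. The count that differed between the NC glands of the time points was 5, with 2 for the NC arrays alone and 0 to 3 without a cow.

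For the ER chaperone list, 3 calls at 24 h became 5 with either block, 1 with all 20 arrays, and 10 with the block and no fold limit. Its 0 calls at 48 h became 4 with either block, 3 with all 20 arrays, 2 with no fold limit, 11 with block and no limit, and 0 to 1 without an array or cow. The translocation list went from 0 to 1 at 24 h with either block, the block without fold limit and the probe set of highest variance. The ATF4 list went from 0 to 1 (24 h) and 2 (48 h) with either block, to 2 and 4 with block and no limit, and to 0 to 1 without 1 array at 48 h. The degradation list gave 1 with block and no limit at both times, 1 with no limit at 48 h, and 0 to 1 without 1 array there. The heat shock list gave 3 at 24 h and 4 at 48 h with block and no limit, and 2 with no limit at 48 h, where the call of BAG3 was lost in 8 leave-one-out fits (0 to 1).

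Signs turned only in values that were not called. DDIT3 turned with quantile normalization (-0.034 for CNT against NC and 0.079 for CF against CNT at 24 h) and with the labels exchanged, with and without the block (0.26 for CF and -0.079 for CFPD against CNT). Without an array or cow the log2 ranges were as follows at 24 h. For CNT against NC they were -0.014 to 0.64 for DNAJB9 and -0.39 to 0.46 for DDIT3. For CF against CNT they were -0.63 to 0.028 for the dimmest PDIA4 probe set and -0.25 to 0.22 for DDIT3. For CFPD against CNT they were -0.077 to 0.21 for HSPA8, -0.044 to 1.06 for ATF4, -0.33 to 0.084 for the dimmest PDIA4 and -0.38 to 0.78 for DDIT3. At 48 h they were -0.025 to 0.43 for the dimmest PDIA4 probe set in CNT against NC, -0.12 to 0.39, -0.37 to 0.15 and -0.70 to 0.050 for ATF4, the dimmest PDIA4 and CALR in CF against CNT, and -0.028 to 0.38 for ATF4 in CFPD against CNT. The cause was not tested for any of these. Median centring, a trended and robust prior and the filter on the mean moved no count of members by over 1.5 times.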
